A study of Mus musculus with 6 samples.

Results

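The transcripts described here are 10 markers of mural cells, the pericytes and smooth muscle cells of vessel walls, as they were counted in cortical thymic epithelial cells (cTEC). The members are Pdgfrb, Cspg4, Mcam, Rgs5, Kcnj8, Abcc9, Des, Acta2, Tagln and Myh11, taken by symbol from the 39179 genes of the count table as a check for vascular cells in the sorted gate. All 10 were found, and all 10 passed the filter on low counts. The study asked what sets apart 2 subsets of cTEC in Cxcl12 DsRed knock-in mice, in which a red fluorescent protein reports transcription of Cxcl12, a chemokine that cTEC make. Untreated C57BL/6 reporter mice at 10 weeks of age gave both subsets, and the cells of both were CD45-, EpCAM1+, UEA1- and Ly51+. Cxcl12 DsRed- cTEC were the cells of this gate without the reporter, and Cxcl12 DsRed+ cTEC were those with it; they are called DsRed- and DsRed+ cTEC from here. Experiments A, B and C each yielded 1 library per subset, and 6 libraries were sequenced. The study describes the replicates of each subset as biological and independent, while a figure legend also mentions a technical triplicate. How many animals went into a library is not given in the sources used here, so p-values reflect only how far these libraries vary, which may in part be technical.

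Pericytes and vascular smooth muscle cells wrap the endothelial tube of vessels and set its tone. Endothelium recruits them by secreting PDGF-B, which binds PDGFRB on their surface. Pericytes of small vessels are rich in surface proteins, RGS5 and a potassium channel that responds to the energy state of the cell, whereas smooth muscle cells of larger vessels carry an actin and myosin apparatus. None of the 10 genes is made by mural cells alone. Myofibroblasts, fibroblasts, skeletal muscle and some epithelial cells transcribe several of them, the contractile genes most of all. In the thymus, pericytes and fibroblasts surround vessels near the border of cortex and medulla.

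Among the members the largest fitted differences lay in Kcnj8 and Abcc9, which encode the pore (KIR6.1) and the regulatory subunit (SUR2) of that channel. Neither passed edgeR's quasi-likelihood test (adjusted p of 0.300 and 0.304). They neighbour each other on the minus strand of chromosome 6, Kcnj8 at 142564837 to 142571614 and Abcc9 at 142587862 to 142702315 (GRCm38, GENCODE), 16247 bases apart. The bases just before each gene are shown because these 2 members were the ones whose levels did not overlap between subsets. They are RefSeq promoter sequence of GRCm38.p6, read 5′ to 3′ on the gene's strand, from chr6:142571615-142571864 for Kcnj8 and from chr6:142702316-142702524 for Abcc9, of which only the 209 bases outside the GENCODE gene are printed. Capitals mark TGGGAA, the core of the site of the Notch pathway factor RBPJ.
Kcnj8: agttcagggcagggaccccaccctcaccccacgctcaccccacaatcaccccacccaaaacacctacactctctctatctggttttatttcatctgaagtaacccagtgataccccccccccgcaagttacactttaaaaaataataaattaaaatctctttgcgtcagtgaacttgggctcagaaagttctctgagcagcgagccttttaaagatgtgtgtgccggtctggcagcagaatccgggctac
Abcc9: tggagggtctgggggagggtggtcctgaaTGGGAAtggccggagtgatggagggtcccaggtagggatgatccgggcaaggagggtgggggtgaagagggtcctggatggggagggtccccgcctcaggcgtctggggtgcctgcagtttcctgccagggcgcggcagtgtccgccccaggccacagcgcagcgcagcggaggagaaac
TGGGAA, searched on both strands over 250 bases before the start, occurred in the window of Abcc9, on its own strand, and not in that of Kcnj8. Among the 7 members found in the RefSeq table, Acta2 also held it, its first base 27 bases before the start, and 21.6% of 32851 promoter windows of the same length did. None of the 7 windows held an exact CArG box (CCWWWWWWGG, W being A or T), a site of serum response factor, which 1.47% of all windows held. None held TATAAA, which 12.4% of all windows held. Sites of serum response factor that depart from that exact pattern were not searched for. Pdgfrb, Myh11 and Tagln are named here without a promoter.

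Counts assigned to genes numbered 34574900 to 44969195 (median 39411518) per DsRed- library and 38875590 to 51042679 (median 47530151) per DsRed+ library, and CPM values are counts relative to library size after TMM scaling. The entry for the reporter had 580 to 1129 counts in DsRed- libraries and 45495 to 79903 counts in DsRed+ libraries. Both subsets held transcripts of EpCAM1 and Ly51, the surface proteins the gate selects for. Epcam averaged 197 ± 27.3 CPM in DsRed- cTEC and 89.4 ± 36.2 CPM in DsRed+ cTEC (SD, n = 3 each). Enpep, the gene for Ly51, averaged 72.6 ± 1.03 CPM in DsRed- cTEC and 137 ± 11.9 CPM in DsRed+ cTEC. Neither passed edgeR's quasi-likelihood test (adjusted p of 0.168 for Epcam and 0.0785 for Enpep), and the study calls the Enpep levels comparable. The DsRed+ library of C stood apart. The summed level of 24 endothelial markers was 158, 136 and 75.1 CPM in DsRed- libraries of A, B and C, against 1150, 1141 and 8513 CPM in DsRed+ libraries of A, B and C, and all 24 were highest in that last library. Erg was at 0 counts in the DsRed- library of B, and no other endothelial marker was at 0 in any library. In A, B and C, 10 genes of epithelium and cTEC summed to 10709, 9720 and 6974 CPM in DsRed- libraries. In DsRed+ libraries they summed to 15579, 18310 and 10285 CPM, so the library of C was lowest in each subset.

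All 10 mural transcripts were detectable in both subsets, and 8 of the 10 fitted folds pointed to lower levels in DsRed- cTEC. Kcnj8 and Abcc9 had the largest differences, 27.8-fold and 22.8-fold lower in the fit. Pdgfrb, Rgs5 and Des were each 2.97-fold to 3.38-fold lower in the fit, while the contractile transcripts Acta2 and Tagln lay within 1.11-fold of equal. No member passed edgeR's quasi-likelihood test at an adjusted p under 0.05, a test that called 0.173% of the 15576 genes lower in DsRed- cTEC, 0.449% higher and 0.623% in either direction. Kcnj8 and Abcc9 were the 2 members with an unadjusted p under 0.05, as were 11.8% of all genes. The same 2 members passed edgeR's likelihood ratio test, which called 2.12% of genes lower, and DESeq2, which called 2.42% lower. The median log2 fold change was -1.47 over the 10 members and 0.02 over all genes tested, and without the DsRed+ library of C these medians were -0.26 and 0.02. In 2 of the 10 members every DsRed- library was below every DsRed+ library, beside 9.32% of all genes, and in none of the 10 was every DsRed- library above, beside 9.73% of all genes. In 6 of the 10 the DsRed- library was the lower one in all 3 experiments, beside 17.5% of all genes. In bulk RNA, fewer cells of a type and less RNA per cell cannot be told apart.

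**Figure D1:**
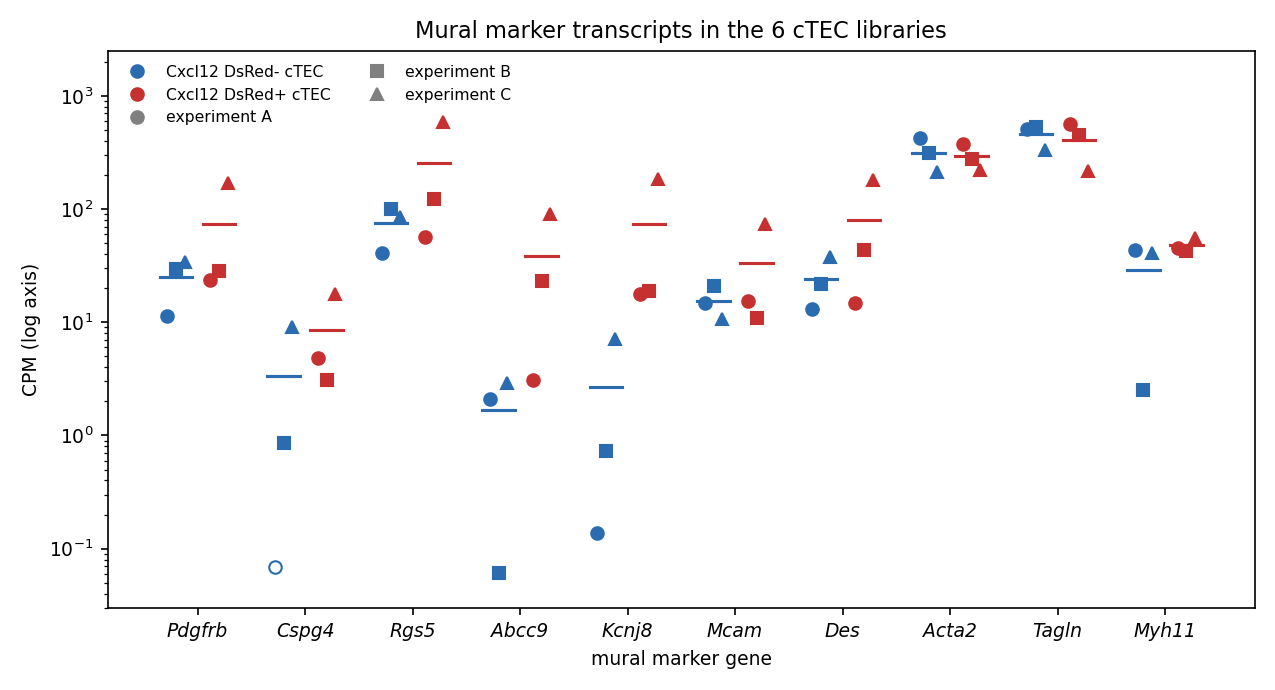
Level of each mural marker transcript in CPM on a log axis, with a symbol for each library (DsRed- cTEC blue and left, DsRed+ cTEC red and right) and a line at each subset's mean. The open circle marks the 0 counts of Cspg4 at the 0.0693 CPM that 3 counts would give, the blue and red symbols separate only for Abcc9 and Kcnj8, and the red triangle of experiment C is the highest point in 8 of the 10 genes.

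Kcnj8 was measured at 0.139, 0.730 and 7.08 CPM in DsRed- libraries of A, B and C, against 17.7, 18.8 and 185 CPM in DsRed+ libraries of A, B and C. The subsets did not overlap, and in each subset the library of C was far above the others. The log2 fold change was -4.80 (standard error 1.65) with an adjusted p of 0.300 by edgeR's quasi-likelihood test, and the two-sided exact permutation test over the 6 libraries gave p = 0.1, the smallest that 3 libraries against 3 can give. Within A, B and C the log2 difference was -6.08, -4.47 and -4.69. Here and for the other members, a constant equal in number to the fit's prior count, but in CPM, was first added to each level. That constant is worth several counts, so it shrinks differences that rest on a very low level, such as those of Kcnj8 in A and Abcc9 in B. The lowest library rested on 6 counts, with an exact 95% Poisson interval of 0.0508 to 0.302 CPM that covers counting error only. Without the DsRed+ library of C the log2 fold change was -2.79, and without the DsRed- library of C it was -7.44, with edgeR's adjusted p at 0.614 and 0.129.

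Abcc9 was measured at 2.10, 0.0608 and 2.90 CPM in DsRed- libraries, against 3.06, 23.2 and 89.8 CPM in DsRed+ libraries (A, B and C each time). These ranges did not overlap either, but the DsRed+ library of A lay just above the DsRed- libraries of A and C. The log2 fold change was -4.51 (standard error 1.56, adjusted p = 0.304 by edgeR's quasi-likelihood test, two-sided exact permutation p = 0.1). It was -0.52, -6.97 and -4.89 within A, B and C, so the difference in A was the smallest of the 3. The 2 counts behind the lowest value gave an exact Poisson interval of 0.00737 to 0.220 CPM. Leaving out the DsRed+ library of C moved the log2 fold change to -2.98, with an adjusted p of 0.607 in edgeR.

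The other channel subunits of this kind are Kcnj11 and Abcc8, which pair in pancreatic beta cells and neurons. Kcnj11 had 0 counts in all 6 libraries. Abcc8 had 125, 330 and 19 counts in DsRed- libraries, against 0, 74 and 0 counts in DsRed+ libraries. Its log2 fold change of 3.11 had the opposite sign to that of Abcc9, but the subsets overlapped and the adjusted p was 0.721 by edgeR's quasi-likelihood test.

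Pdgfrb, the receptor for PDGF-B by which pericytes are often identified, was at 11.3, 29.7 and 33.7 CPM in DsRed- libraries, against 23.4, 28.2 and 170.5 CPM in DsRed+ libraries. The subsets overlapped, and the DsRed+ library of C was alone at the top. The log2 fold change of -1.57 had a standard error of 0.84 and an adjusted p of 0.566 in edgeR, and within A, B and C the differences were -1.04, 0.07 and -2.33. Without the DsRed+ library of C the log2 fold change was -0.08. Cspg4, which encodes the NG2 proteoglycan of the pericyte surface, was at 0, 0.852 and 9.15 CPM in DsRed- libraries, against 4.80, 3.07 and 17.8 CPM in DsRed+ libraries. It was the least abundant member by CPM over all libraries, and its 0 counts in the DsRed- library of A allow up to 0.0693 CPM. The ranges overlapped because the DsRed- library of C was above the DsRed+ libraries of A and B (log2 fold change -1.36, standard error 1.82, adjusted p = 0.875 in edgeR). The fold was -4.34 on the log2 scale without the DsRed- library of C and -0.24 without the DsRed+ library of C. Mcam, the adhesion molecule CD146 that both pericytes and endothelial cells carry, was at 14.6, 20.7 and 10.6 CPM in DsRed- libraries, against 15.4, 11.0 and 73.8 CPM in DsRed+ libraries. The DsRed+ library of C was again the only one apart from the others. The log2 fold change was -1.12 with a standard error of 0.76 (adjusted p = 0.671 in edgeR), and 0.17 without that library.

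Among the ligands and the other receptor of the PDGF family, no gene passed edgeR's quasi-likelihood test in either direction. Pdgfb, the ligand by which endothelium draws pericytes, was at 4.30, 20.8 and 0.885 CPM in DsRed- libraries, against 5.35, 2.02 and 30.4 CPM in DsRed+ libraries. The subsets overlapped throughout, and the order of the libraries was not that of Pdgfrb. Log2 fold changes were 0.11 for the ligand Pdgfa, 1.41 for Pdgfc (adjusted p = 0.255), -0.88 for Pdgfd and 1.94 for the fibroblast receptor Pdgfra (adjusted p = 0.441). Of proteins that bind NG2 or CD146, Lgals3 (galectin-3) was at 68.3 ± 32.1 CPM in DsRed- cTEC and 10.7 ± 1.87 CPM in DsRed+ cTEC (n = 3 each, log2 fold change 2.68, adjusted p = 0.0638 in edgeR). Wnt5a, a secreted Wnt ligand, was at 23.1 ± 19.0 CPM in DsRed- cTEC and 1.67 ± 0.151 CPM in DsRed+ cTEC (log2 fold change 3.79, adjusted p = 0.0867 in edgeR). Neither passed. Of the list's 6 genes, Mcam and Cspg4 included, only these 2 had every DsRed- library above every DsRed+ library, beside 9.73% of all genes. The laminin genes Lama4 and Lama5 had log2 fold changes of -0.76 and 0.45.

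Rgs5 encodes a pericyte-enriched regulator that switches off G protein signalling. It was at 41.3, 101 and 85.7 CPM in DsRed- libraries, against 56.5, 123 and 592 CPM in DsRed+ libraries. In A and B the subsets differed little, with log2 differences of -0.45 and -0.28, and in C the difference was -2.79. The log2 fold change was -1.76 (standard error 0.85, adjusted p = 0.507 in edgeR), and -0.28 without the DsRed+ library of C. Of 9 genes of the R4 family of these regulators 7 were tested and none passed edgeR's test. Rgs13 had a log2 fold change of 8.48 (adjusted p = 0.0590), Rgs2 one of 2.94 (adjusted p = 0.0621) and Rgs16 one of -3.64 (adjusted p = 0.277), so signs differed within the family.

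Des encodes desmin, the intermediate filament of muscle and of many pericytes. Its level was 13.0, 21.6 and 37.3 CPM in DsRed- libraries, against 14.8, 43.5 and 179 CPM in DsRed+ libraries. The DsRed- library was the lower one in each experiment, by log2 differences of -0.19, -1.01 and -2.26, yet the ranges overlapped. The log2 fold change was -1.73 (standard error 0.88, adjusted p = 0.541 in edgeR), and -0.32 without the DsRed+ library of C. Synm, whose product synemin assembles with desmin and vimentin, was the sole gene of the intermediate filament list to pass. It fell to 65.8, 56.3 and 46.6 CPM in DsRed- libraries, against 242, 259.6 and 145 CPM in DsRed+ libraries (log2 fold change -1.94, standard error 0.28, adjusted p = 0.0461 in edgeR). The call did not hold when any single library was left out (log2 fold change -2.20 to -1.80, adjusted p of 0.0761 to 0.181 in edgeR) or when libraries were blocked by experiment (adjusted p = 0.0551), and the test called 0.173% of all genes lower. Unlike Des, Synm was not highest in the DsRed+ library of C. Nes (nestin) had a log2 fold change of -3.92 (adjusted p = 0.225), Vim (vimentin) one of -1.56 (adjusted p = 0.473) and Sync (syncoilin) one of 3.20 (adjusted p = 0.678).

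Acta2, Tagln and Myh11 make up the contractile members and encode smooth muscle α-actin, the actin-binding protein transgelin and smooth muscle myosin heavy chain. Acta2 was at 420.4, 311 and 214 CPM in DsRed- libraries, against 377, 276 and 222 CPM in DsRed+ libraries. Tagln was at 507, 531 and 333 CPM in DsRed- libraries, against 566, 451 and 216 CPM in DsRed+ libraries. For both genes the ranges overlapped almost wholly, and the library of C was the lowest in each subset. The log2 fold changes were 0.11 for Acta2 (standard error 0.31, adjusted p = 0.954 in edgeR) and 0.15 for Tagln (standard error 0.37, adjusted p = 0.950 in edgeR), and both turned negative without the DsRed+ library of C, to -0.09 and -0.19. Myh11, the member most restricted to smooth muscle, was at 43.5, 2.49 and 41.2 CPM in DsRed- libraries, against 44.8, 42.7 and 55.8 CPM in DsRed+ libraries. A single library, the DsRed- one of B, was low for it, and the other 5 lay between 41.2 and 55.8 CPM (log2 fold change -0.72, standard error 0.86, adjusted p = 0.857 in edgeR). Without that low library the log2 fold change was -0.18. Exons of Tagln share 62.4% of their bases with the antisense gene Gm48529, and reads of such shared bases cannot be told apart by gene where strand is not used in counting. For Des and Abcc9 antisense genes covered 5.86% and 1.89% of exon bases.

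**Figure D2:**
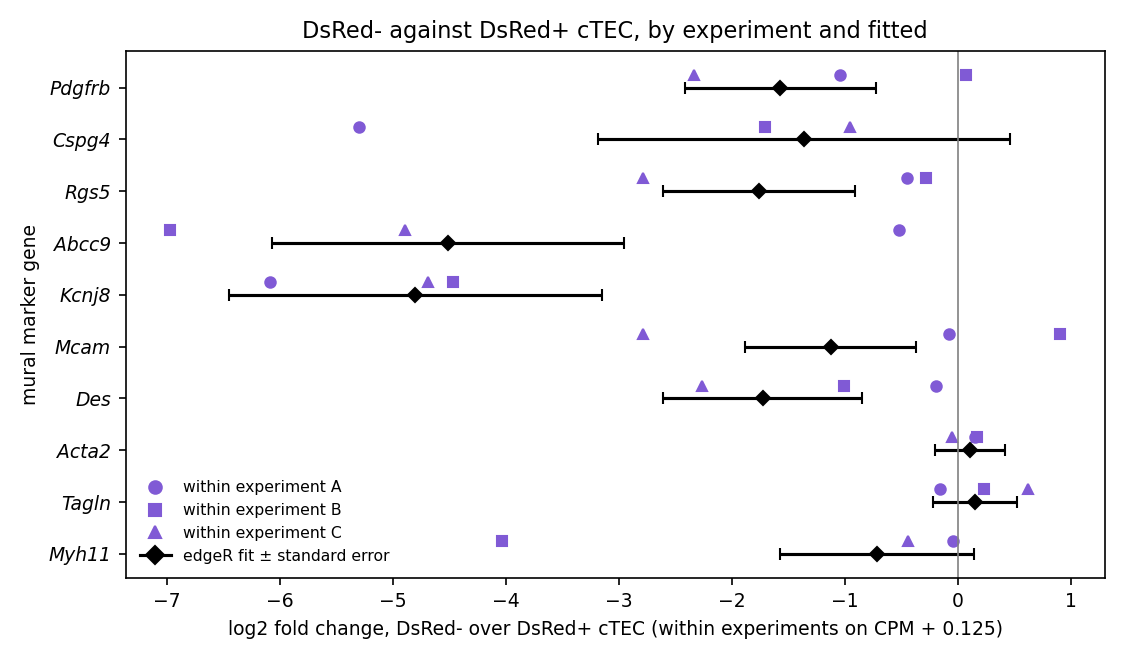
Log2 fold change of each mural marker transcript, DsRed- cTEC over DsRed+ cTEC. Purple symbols are differences within experiments A, B and C, after adding a constant in CPM equal in number to the fit's prior count. Black diamonds are from the edgeR fit to all 6 libraries, with the standard error. Kcnj8 lies below -4 in every experiment, Abcc9 does so in B and C, and Acta2 and Tagln lie near 0.

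A list of 19 actin and myosin genes that most cell types use was set beside the contractile members. None passed edgeR's quasi-likelihood test, and their median log2 fold change was -0.04. The 4 with the smallest p were Vcl (vinculin) at -0.64, Myl6 at -0.38, Tpm4 at -0.43 and Myh10 at 1.15, with adjusted p of 0.441 to 0.563. Of 20 genes of skeletal and cardiac muscle 8 were tested and none passed. The median log2 fold change was 1.46, with 5 positive and 3 negative. The 20 genes summed to 40.0, 51.4 and 10.3 CPM in DsRed- libraries, against 9.51, 10.3 and 15.6 CPM in DsRed+ libraries. Ttn, the gene for titin, had 680, 820 and 20 counts in DsRed- libraries, against 62, 176 and 3 counts in DsRed+ libraries, and Chrna1, an acetylcholine receptor subunit, had 246, 131 and 44 counts in DsRed- libraries, against 0, 27 and 0 counts in DsRed+ libraries. Tnnt1, a troponin gene with the smallest p of that list, went the other way (log2 fold change -4.21, adjusted p = 0.499 in edgeR). Myod1, Myf5, Actc1, Tnnt3 and Chrng had 0 counts in all 6 libraries.

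The members split by their behaviour in the DsRed+ library of C. Relative to the mean of the DsRed+ libraries of A and B, this library held 10.2 times the CPM of Kcnj8, 6.85 times that of Abcc9, 6.61 times that of Pdgfrb and of Rgs5, 6.16 times that of Des, 5.59 times that of Mcam and 4.53 times that of Cspg4. Myh11 stood at 1.28 times, Acta2 at 0.680 times and Tagln at 0.426 times. The 7 members outside the contractile group summed to 82.4, 175 and 186 CPM in DsRed- libraries, against 136, 250.3 and 1309 CPM in DsRed+ libraries. The 3 contractile members summed to 970.5, 844 and 589 CPM in DsRed- libraries, against 988, 769 and 494 CPM in DsRed+ libraries. Contractile transcripts thus made up 92.2%, 82.9% and 75.9% of the members' CPM in DsRed- libraries, against 87.9%, 75.5% and 27.4% in DsRed+ libraries. The other markers of mural cells included genes of both kinds, and 17 of the 21 with a mean of at least 1 CPM were highest in that same library. So were 4 of 19 actin and myosin genes, 1 of 16 fibroblast genes and 2 of 10 genes of epithelium and cTEC. Against the DsRed+ libraries of A and B alone, 12 of the 16 fibroblast genes were higher in that of C. Their median was 1.68 times, with a range of 0.355 to 7.44 times. Medians were 3.82 times for the other mural markers, 0.904 for actin and myosin genes and 0.630 for epithelium and cTEC. The share of all genes that were highest in the DsRed+ library of C was not counted. The 24 endothelial genes were higher there by a median of 7.19 times (range 4.19 to 16.6), and its part in the members' levels was not tested.

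**Figure D3:**
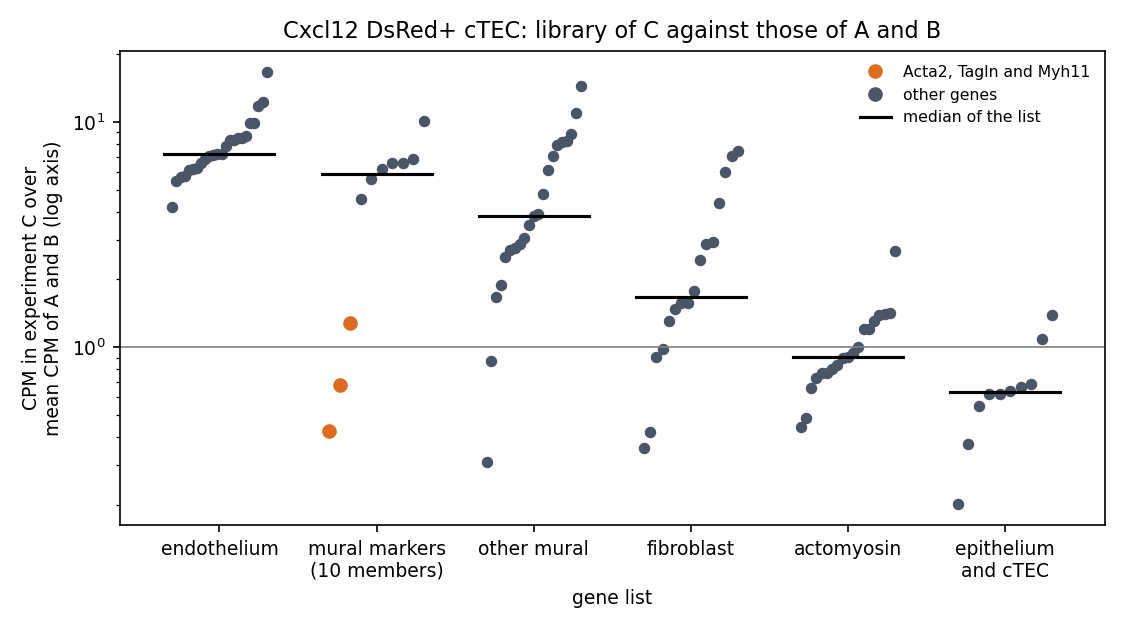
CPM in the DsRed+ library of C over the mean CPM of the DsRed+ libraries of A and B, on a log axis, with a point per gene with a mean of at least 1 CPM and a bar at each list's median. All 24 endothelial genes and 7 of the 10 mural members lie above 4 times, while Myh11, Acta2 and Tagln (orange) lie at 1.28, 0.680 and 0.426 times.

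Per kilobase of exon, the scale on which genes can be compared, Tagln and Acta2 had the highest means in both subsets, although in the DsRed+ library of C Rgs5 was above both, at 130.2 CPM per kb, against 109 for Tagln and 101 for Acta2. Tagln averaged 229.8 ± 54.3 CPM per kb in DsRed- cTEC and 207 ± 89.6 CPM per kb in DsRed+ cTEC, and Acta2 averaged 143 ± 46.9 CPM per kb in DsRed- cTEC and 133 ± 35.8 CPM per kb in DsRed+ cTEC (SD, n = 3 each). Rgs5 came next in both, at 16.7 ± 6.81 CPM per kb in DsRed- cTEC and 56.5 ± 64.2 CPM per kb in DsRed+ cTEC. In DsRed- cTEC the order went on with Des, Mcam, Pdgfrb, Myh11, Kcnj8, Cspg4 and Abcc9, at means of 6.38 to 0.202 CPM per kb. In DsRed+ cTEC it went on with Kcnj8, Des, Pdgfrb, Mcam, Myh11, Abcc9 and Cspg4, at 29.0 to 0.718 CPM per kb. Neighbours in these orders had overlapping ranges, except Acta2 and Rgs5 in DsRed- cTEC. Kcnj8 thus stood in the eighth place of 10 in DsRed- cTEC and in the fourth in DsRed+ cTEC.

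Set against Pecam1, a transcript of endothelium, per kb of exon and within each library, 7 of the 10 members had higher ratios in every DsRed- library than in any DsRed+ library, as did 82.8% of all genes tested. Pecam1 itself averaged 6.05 ± 6.18 CPM in DsRed- cTEC and 396 ± 460.4 CPM in DsRed+ cTEC (SD, n = 3 each), so a gene at like levels in both subsets separates on this scale. Kcnj8, Abcc9 and Cspg4 were the members that did not separate. Pdgfrb stood at 0.977, 20.2 and 11.4 times Pecam1 in DsRed- libraries, against 0.196, 0.258 and 0.209 times in DsRed+ libraries. Its ratio varied little among the DsRed+ libraries, the library of C included. Other ratios in DsRed+ libraries ran from 0.148 to 0.212 for Mcam and from 0.0100 to 0.0185 for Cspg4. They ran more widely for Rgs5 (0.572 to 1.35), Des (0.182 to 0.580) and Abcc9 (0.0168 to 0.139). Kcnj8 stood at 0.0258, 1.07 and 5.14 times in DsRed- libraries, against 0.320, 0.370 and 0.489 times in DsRed+ libraries, so here the subsets overlapped. Acta2 stood at 90.9, 526 and 180.4 times in DsRed- libraries, against 7.90, 6.30 and 0.680 times in DsRed+ libraries. Its ratio in the DsRed+ library of C was far below that in A and B. These ratios are descriptions, and in DsRed- libraries they divide by 55 to 568 counts of Pecam1.

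**Figure D4:**
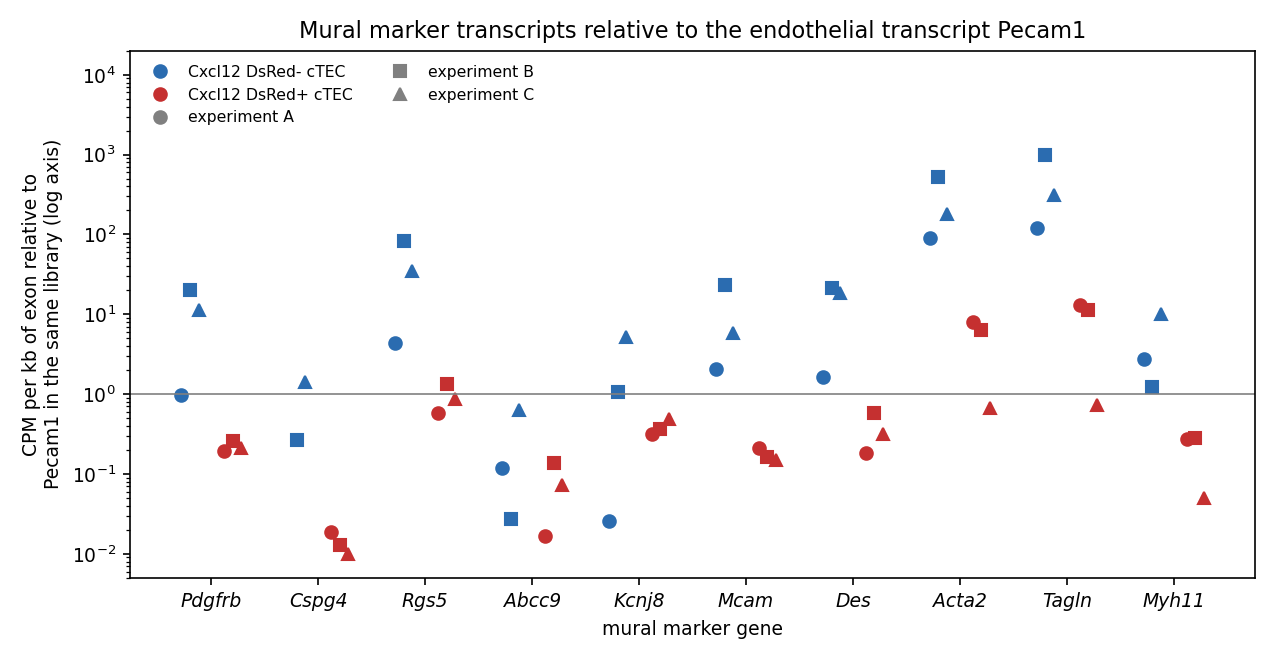
Level of each mural marker transcript per kb of exon relative to Pecam1 in the same library, on a log axis (DsRed- cTEC blue and left, DsRed+ cTEC red and right; the grey line is a ratio of 1, and the ratio of 0 for Cspg4 in the DsRed- library of A is not drawn). Red symbols of Pdgfrb lie close together at 0.196 to 0.258, and the red triangles of Acta2, Tagln and Myh11 lie below the other red symbols.

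A list of 25 other mural genes gave 22 tested, of which none passed edgeR's quasi-likelihood test and 18 had negative log2 fold changes, with a median of -1.02 against 0.02 over all genes. In 4 of the 22 every DsRed- library was below every DsRed+ library, beside 9.32% of all genes. Casq2, which encodes the calcium-binding protein calsequestrin of cardiac and smooth muscle, had 0 counts in all 3 DsRed- libraries, against 185, 87 and 173 counts in DsRed+ libraries. With a floor of 3 counts per library it was at least 41.7-fold lower in DsRed- cTEC, with an adjusted p of 0.0867 in edgeR. Itga7, an integrin subunit of muscle and pericytes, was at 0.0924, 0.0608 and 1.25 CPM in DsRed- libraries, against 3.14, 12.9 and 56.7 CPM in DsRed+ libraries (log2 fold change -5.68, adjusted p = 0.206 in edgeR). Ndufa4l2, which pericytes express strongly, was at 1.55, 4.72 and 4.03 CPM in DsRed- libraries, against 5.88, 9.66 and 61.2 CPM in DsRed+ libraries (log2 fold change -2.90, adjusted p = 0.310 in edgeR). Synpo2, an actin-binding protein of smooth muscle, differed least of the 4 (log2 fold change -0.59, adjusted p = 0.299 in edgeR). In Casq2 the DsRed+ library of C was 1.68 times the mean of the other 2, against 7.06 times in Itga7 and 7.88 times in Ndufa4l2.

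The other vascular and stromal lists differed in direction. Of the 24 endothelial genes 3 fell in DsRed- cTEC by edgeR's quasi-likelihood test and none rose, beside 0.173% of all genes lower and 0.449% higher. All 24 log2 fold changes were negative, and the median was -6.03. Those that fell were Cd93, Esm1 and Emcn, surface and secreted proteins of endothelium, with log2 fold changes of -7.86, -9.26 and -8.85 and adjusted p of 0.0396, 0.0429 and 0.0466. Robo4, next by p, had a log2 fold change of -7.93 and an adjusted p of 0.0550. None of the 3 calls held when any single library was left out (adjusted p of 0.0751 to 0.196 in edgeR), though the log2 fold changes stayed at -6.45 or below, and blocking by experiment gave Cd93 an adjusted p of 0.0778. Of 16 fibroblast genes none passed, 15 had positive log2 fold changes, and the median was 1.0. Their summed level was 4101, 3968 and 5492 CPM in DsRed- libraries, against 1844, 1969 and 1426 CPM in DsRed+ libraries. The proteoglycan gene Dcn alone averaged 3226 CPM of a mean sum of 4520 CPM in DsRed- cTEC. In DsRed+ cTEC it averaged 1212 CPM of a mean sum of 1746 CPM. In 1 of the 16, Dcn, every DsRed- library was above every DsRed+ library, beside 9.73% of all genes. Dcn also had the smallest p of that list, with a log2 fold change of 1.41 (adjusted p = 0.129 in edgeR). Next by p were Loxl1, a cross-linker of elastin, at 2.7 (adjusted p = 0.325 in edgeR), the collagen gene Col3a1 at 1.90 (adjusted p = 0.399) and Pdgfra. What part either list had in the levels of the mural members was not tested.

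By likeness of level over the 6 libraries, the genes closest to Tagln were Parm1, Vstm2a and Kif23 (Pearson's r of log2 CPM 0.996, 0.985 and 0.984), and those closest to Acta2 were Csmd1, Sh3tc2 and Rhbdd3 (0.991, 0.991 and 0.981), out of 14518 genes compared. Parm1 was at 440.1, 484 and 314 CPM in DsRed- libraries, against 531, 416 and 185 CPM in DsRed+ libraries. With 6 libraries and so many genes such values describe these libraries only.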

How the data were processed

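The series measured poly(A) RNA of 6 libraries, made with a SMARTer kit for low RNA input. The methods and the submitters' notes name Trimmomatic 0.36 for trimming, STAR 2.7.3a for alignment to mm10 and HTSeq, in intersection-nonempty mode, for counting. The values the authors deposited are whole-number counts without normalization. Which annotation release was used, and whether strand was, is not given in the sources used here. Of 39277 entries, 39179 were genes. The 92 spike-in names (0 counts), the 5 HTSeq summary entries and the reporter entered neither library sizes nor tests. Relative to the counts in genes, reads in no feature came to 5.87% to 9.35%, ambiguous reads to 1.21% to 1.38% and reads aligned to several places to 5.61% to 9.07%. Symbols and coordinates came from GENCODE vM21 on GRCm38 (mm10), where 37607 IDs were found. Genes without a symbol held 0.180% of counts.

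Counts were fitted in R 4.3.3 with edgeR 4.0.16 (filterByExpr with a minimum count of 10, TMM, prior count 0.125, quasi-likelihood test, Benjamini-Hochberg adjustment over all 15576 genes, threshold 0.05). The methods name edgeR without naming the test. Standard errors are the log2 fold change over the square root of F. The test was tested on simulated data. Other fits used the likelihood ratio test, a block for experiment, DESeq2 1.42.0 (adjusted p not available for 532 genes), voom of limma 3.58.1, library totals or RLE size factors in place of TMM, a prior count of 2, no filter or a filter at a mean of 1 CPM, and 5 of the 6 libraries at a time. The likelihood ratio test with the block, and leaving out each experiment, were chosen after seeing the data.

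The labels' experiment letters were taken as pairs for the differences within experiments and for the block. The main fit and the permutation test did not pair libraries. Across genes, the correlation of deviations from the mean of each subset was 0.0187, 0.0834 and 0.0792 for libraries sharing the letter A, B or C, and -0.103 to 0.0036 for other pairs. No libraries were duplicates (chi-square per degree of freedom 168 to 725). The members and gene lists were chosen with earlier results of these data known. Beside the 10 members, the rule named the 4 genes with the smallest p among the other mural, actin and myosin, endothelial and fibroblast genes, every gene of lists of at most 6, and the 3 genes most like each of the 2 members with the highest mean CPM. Rgs13, Rgs2 and Rgs16, the skeletal and cardiac muscle genes and Erg fall outside that rule and were chosen after their values were seen. Floors and intervals cover counting error only, since amplified reads are not independent molecules. Plots were drawn with matplotlib 3.10.9.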

Additional observations from a re-analysis of the deposited data

How the results depend on the processing

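The 10 members were refitted under 19 alternatives. The number called lower, 0 by edgeR's quasi-likelihood test, was 2 by the likelihood ratio test and 2 by DESeq2 (Kcnj8 and Abcc9 both times), and 1 (Kcnj8, adjusted p = 5.62e-13) by the likelihood ratio test with a replicate block, an alternative chosen after seeing the data. The adjusted p of Kcnj8 was 0.0331 by the likelihood ratio test and 0.00194 by DESeq2, and that of Abcc9 was 0.0430 and 0.00526. No other alternative called a member. With the replicate block, which pairs libraries by experiment, the quasi-likelihood test gave log2 fold changes of -5.31 for Kcnj8 (adjusted p = 0.0619) and -4.57 for Abcc9 (adjusted p = 0.468), and it changed no member's call. Over the single-library omissions the log2 fold change ran from -7.44 to -2.79 for Kcnj8, from -5.14 to -2.98 for Abcc9, from -0.18 to 0.32 for Acta2, from -0.19 to 0.40 for Tagln and from -1.54 to 0.17 for Mcam.

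Signs turned in 3 members. Acta2 moved to -0.18 without the DsRed- library of A and to -0.09 without the DsRed+ library of C. Tagln moved to -0.19 without the DsRed+ library of C and to -0.0042 without experiment C. Mcam moved to 0.17 without the DsRed+ library of C and to 0.39 without experiment C. The cause was not tested. Omissions of an experiment were chosen after seeing the data.

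Over all genes, 70 were called higher and 27 lower, against 550 and 330 by the likelihood ratio test, 644 and 416 with the block added, 704 and 377 by DESeq2, 3 and 1 by voom, 122 and 46 without a filter, 32 and 3 without experiment C, 0 and 0 without experiment A or B, and 0 to 120 and 0 to 19 with 1 library left out at a time. The standard errors of Pdgfrb, Rgs5 and Des were 0.84 to 0.88 on the log2 scale with 3 libraries a subset, and their differences did not stand out from that spread. Low counts of Cspg4, Kcnj8 and Abcc9 limit those members in DsRed- cTEC.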
